A study of Mus musculus with 18 samples.

Results

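The genes described here are 8 protein tyrosine phosphatases and dual-specificity phosphatases that tune signals of the T cell receptor. They are the tyrosine phosphatases Ptprc, Ptpn6, Ptpn22, Ptpn11 and Ptpn2, and the dual-specificity phosphatases Dusp2, Dusp5 and Dusp6. They were chosen by name, and each is represented by the chimeric reads that lie on its strand inside its RefSeq gene span, out of 17560 genes with at least 1 such read. Together the 8 genes held 4317 of the 1190995 chimeric reads of the series, and 3 further reads lay on the opposite strand of their spans.

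The reads come from miR-eCLIP of mouse thymocytes, the developing T cells of the thymus, from mice 6 weeks old. Cells were crosslinked with UV light (254 nm), Argonaute 2 (Ago2), which loads microRNAs (miRNAs), was immunoprecipitated (IP), and each miRNA was joined to the RNA piece bound beside it. A chimeric read therefore names a miRNA and gives the position of its target. Wild-type C57BL/6 mice and knockout mice (B6.Mirc14tm1.1Ankr, labelled miR181a/b-1-KO) were compared, both with a plain Ago2 IP and with a further selection for miR-181 (the enriched libraries). Each of these 4 groups had 3 libraries. The 6 input samples were not analysed here, and the labels do not say whether the 3 libraries of a group came from different mice, so p-values measure the spread between libraries, which may be technical.

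T cell receptor signals run through tyrosine kinases of the Src and Syk families to the MAP kinases ERK, and phosphatases act at each step. Ptprc (CD45) removes the inhibitory phosphate of the kinase Lck, Ptpn22 and Ptpn6 (SHP-1) remove activating phosphates from proximal kinases, and Dusp2, Dusp5 and Dusp6 inactivate MAP kinases, Dusp5 and Dusp6 with a preference for ERK. miR-181a is abundant in immature thymocytes and is known for setting T cell receptor sensitivity by repressing several phosphatases, and a miRNA usually pairs with its target through its seed, bases 2 to 8. Mature miR-181 miRNAs are also encoded at loci other than the one that the knockout label names.

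Several of the mature miRNAs that carried the members' reads are listed here. Most of the sites described for each gene were led by 1 or a few of their seeds. Sequences are from RefSeq (assembly GRCm38.p6), written 5′ to 3′ with the seed in capitals, and are grouped by shared seed: miR-181a to d first, then miR-142a-3p, let-7, miR-29, miR-20a-5p and miR-16-5p.
miR-181a-5p: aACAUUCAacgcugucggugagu
miR-181b-5p: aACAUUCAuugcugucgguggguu
miR-181c-5p: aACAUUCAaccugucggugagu
miR-181d-5p: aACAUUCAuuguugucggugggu
miR-142a-3p: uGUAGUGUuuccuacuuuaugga
let-7d-5p: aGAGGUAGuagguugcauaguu
let-7f-5p: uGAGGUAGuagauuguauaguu
miR-29a-3p: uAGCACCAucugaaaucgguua
miR-29b-3p: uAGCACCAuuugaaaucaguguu
miR-20a-5p: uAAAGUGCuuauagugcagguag
miR-16-5p: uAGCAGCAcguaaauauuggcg

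Ago2 IP libraries held between 43983 and 117849 chimeric reads, wild-type enriched libraries between 194628 and 293149, and knockout enriched libraries only 6832 to 19264, where 3 reads correspond to 156 to 439 RPM (reads per 1000000 chimeric reads of a library). The miR-181 miRNAs took 30.1% to 32.3% of the reads of wild-type Ago2 IP libraries and 1.32% to 1.44% in the knockout ones. After the enrichment they made up 98.8% to 99.2% in the wild type and 70.5% to 72.6% in the knockout. Between 3.24% and 4.72% of the Ago2 IP reads repeated the position, strand and miRNA of another read, against 27.9% to 34.1% in the wild-type enriched libraries. A list of 14 thymocyte markers carried reads at 14415 to 18150 RPM in all 12 libraries, with Ptcra at 0 in both knockout groups. The 6 thymic epithelial markers held at most 1 read in any group, and 6 B cell markers held 82.1 to 467 RPM. The 7 macrophage and dendritic markers held 0 to 65.8 RPM and the 5 erythroid markers 0 to 68.2. Of the 5 endothelial and fibroblast markers, Pecam1 alone held all reads in the Ago2 IP, at 246 to 305 RPM in the wild type and 378 to 458 in the knockout, and its part in the results below was not tested. A read count depends on the miRNA, on the target RNA and on the ligation, and in these bulk cells fewer cells with a transcript and less of it per cell cannot be told apart.

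**Figure D1:**
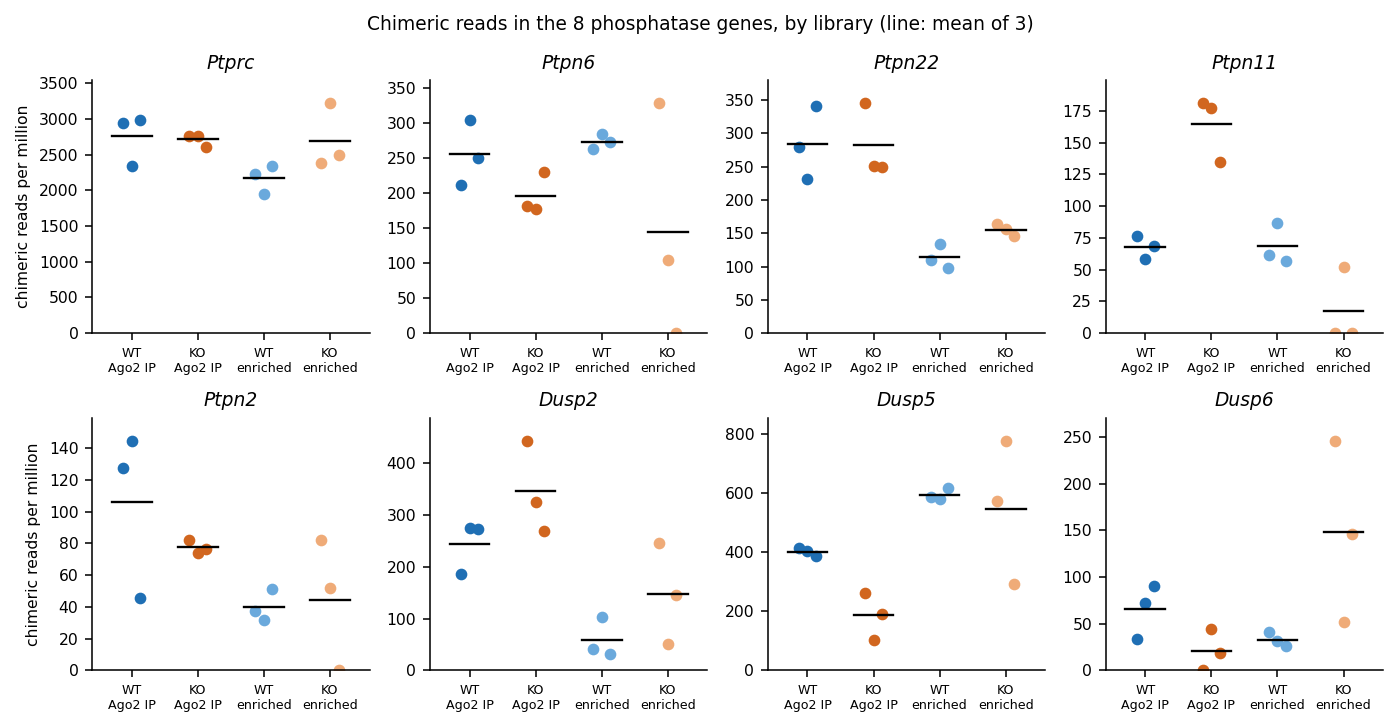
Chimeric reads in RPM (y axis, linear from 0) in the 8 genes, 1 point per library and a line at the mean of 3, for the wild-type (WT) and knockout (KO) Ago2 IP and enriched libraries (x axis). Dusp5 lies between 387 and 416 in the wild-type Ago2 IP and between 103 and 263 in the knockout, without overlap.

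Ptprc encodes CD45, the receptor-type phosphatase found on all nucleated blood cells, and it held 2839 of the members' reads. Its span lies on chromosome 1 from 138062859 to 138175756 (minus strand, GRCm38.p6). In the wild-type Ago2 IP it held 347, 162 and 131 reads in replicates 1, 2 and 3, or 2944, 2345 and 2978 RPM. In the knockout it held 168, 187 and 136 reads, or 2764, 2765 and 2610 RPM, inside the wild-type range. Its total did not pass the test between genotypes (edgeR log2 difference, knockout minus wild type, -0.05 ± 0.12 (SE), 95% interval -0.28 to 0.19, adjusted p = 0.872).

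The Ptprc reads were then split by miRNA. miR-181 reads numbered 160, 77 and 56 in the wild type, which is 46.1%, 47.5% and 42.7% of the gene's reads, and 4, 4 and 6 in the knockout, or 2.38%, 2.14% and 4.41%. In RPM these were 1249 ± 123 (SD, n = 3) and 80.0 ± 30.6 (SD, n = 3), a 15.6-fold difference of the means. Reads of all other miRNAs, scaled to the other-miRNA reads of each library, were 2190 ± 375 per 1000000 in wild-type and 2670 ± 120 in knockout libraries (SD, n = 3 each), with the lowest knockout library at 2532 and the highest wild-type library at 2518. That difference had a log2 value of 0.30 ± 0.12 (SE) with an edgeR adjusted p of 0.22 and was not called. Of the Ptprc reads that were not miR-181, miR-142a-3p took 131 of 347 in the wild type and 196 of 477 in the knockout, and let-7 took 82 and 105. These are shares of 37.8% and 41.1% for miR-142a-3p, against 40.1% and 40.2% over all reads of other miRNAs, and of 23.6% and 22.0% for let-7, against 16.8% and 16.6%.

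Reads with gaps of up to 20 nt between them were joined into sites, and Ptprc had 650 of the members' 974 sites. Its most frequent site spanned chr1:138160297-138160486 (minus strand), 15370 nt from the 5′ end and 97527 nt from the 3′ end of the span, and held 584 reads, 571 of them with miR-181. In the Ago2 IP it held 61, 36 and 25 reads in wild-type and 4, 2 and 3 in knockout libraries, so that the groups lay far apart. Its log2 difference was -3.50 ± 0.41 (SE, edgeR adjusted p = 5.37e-13), so that it fell in the knockout, and the value lay between -3.74 and -3.20 over 12 alternative fits. It was deep enough for the main fit only through the wild-type libraries, where it was high. After the enrichment it held 187, 130 and 114 reads in wild-type and 6, 14 and 2 in knockout libraries, of which 22 of 22 in the knockout were miR-181 reads. Of its 584 reads, 252 were repeats of another read.

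Some other Ptprc sites mixed miRNAs, while others held almost only miR-181, such as sites with 118 of 125 and 54 of 54 miR-181 reads. The second most frequent site, chr1:138064158-138064370 (minus strand), lay 1365 nt from the 3′ end. Its Ago2 IP reads numbered 21, 8 and 13 in wild-type libraries and 2, 3 and 6 in knockout libraries, without overlap. Of these, 28 of 42 were miR-181 reads in the wild type and 0 of 11 in the knockout, and miR-30c-5p with 8 reads and miR-342-3p with 5 followed over both genotypes. Another, chr1:138113702-138113822, held 11, 3 and 5 reads in wild-type and 6, 5 and 1 in knockout libraries, which overlap, with miR-142a-3p as its most frequent Ago2 IP miRNA (8 reads). A site near the 5′ end, chr1:138168007-138168132, carried no miR-181 read in the Ago2 IP: it held 14, 9 and 4 reads in wild-type and 7, 8 and 10 in knockout libraries, led by let-7f-5p (14), miR-142a-3p (13) and let-7a-5p (9). After the enrichment this site held 1, 0 and 1 reads in the wild type.

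Ptpn6 encodes SHP-1, a phosphatase that is recruited to inhibitory receptors through SH2 domains. Its span is chr6:124720707-124738709 (minus strand). It held 25, 21 and 11 wild-type Ago2 IP reads and 11, 12 and 12 knockout ones, or 212, 304 and 250 RPM against 180.95, 177 and 230 RPM. The ranges overlapped, and the log2 difference was -0.38 ± 0.31 (SE; 95% interval -0.997 to 0.24; edgeR adjusted p = 0.513). miR-181 reads numbered 17, 11 and 5 in wild-type and 0, 0 and 0 in knockout libraries, which is at least 8.60-fold lower when 3 reads over the knockout group are taken as the floor. In the wild type they made up 68.0%, 52.4% and 45.5% of the gene's reads.

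One region accounted for most miR-181 reads of Ptpn6. The site chr6:124725442-124725922 (minus strand), 481 nt wide and centred 4955 nt from the 3′ end, held 206 of the gene's 300 reads, 204 of them with miR-181. It held 17, 9 and 5 wild-type Ago2 IP reads and 0, 0 and 0 knockout ones, at least 8.08-fold lower over the group, and it was too shallow for the fit between genotypes. In the wild-type enriched libraries it held 67, 63 and 43 reads. Downstream of it, chr6:124724999-124725102 carried miR-142a-3p in 18 of its 20 Ago2 IP reads, with 2, 3 and 2 reads in wild-type and 5, 5 and 3 in knockout libraries. A further site, chr6:124727434-124727474, was led by miR-16-5p with 8 of its reads. miR-142a-3p took 14 of the 24 reads that were not miR-181 in the wild type and 20 of 35 in the knockout.

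Ptpn22 encodes LYP/PEP, which dephosphorylates Lck and Zap70, and its span is chr3:103856575-103912252 (plus strand). It held 33, 16 and 15 wild-type Ago2 IP reads and 21, 17 and 13 knockout ones, or 280, 232 and 341 RPM against 345, 251 and 250 RPM. The groups overlapped and had means of 284 ± 54.8 and 282 ± 54.9 (SD, n = 3 each), with a 95% interval of the log2 difference from -0.71 to 0.71. miR-181 reads numbered 7, 8 and 2 in wild-type and 0, 0 and 0 in knockout libraries, at least 4.43-fold lower against 3 reads over the group. Its reads were spread thinly: the most frequent of its 111 sites, chr3:103884633-103884728, held 17 reads over all libraries, 6 of them with miR-181. In the Ago2 IP that site was led by miR-142a-3p with 7 reads. The next site, chr3:103911980-103912011, lay 246 nt from the 3′ end and had 13 miR-181 reads among 15, and the one after it, chr3:103875272-103875323, was led by miR-16-5p with 6 of 12 reads.

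Ptpn11 encodes SHP-2, an SH2-domain phosphatase that mostly promotes Ras and ERK signalling, and its span is chr5:121130533-121191397 (minus strand). It held 9, 4 and 3 wild-type Ago2 IP reads and 11, 12 and 7 knockout ones, or 76.4, 57.9 and 68.2 RPM against 180.95, 177 and 134 RPM. Every knockout library lay above every wild-type library, but the gene was too shallow for the fit. In the fit without a filter on low counts its log2 difference was 1.13 ± 0.46 (SE, edgeR adjusted p = 0.416). miR-181 reads numbered 5, 2 and 1 in the wild type and 0 in each knockout library, and miR-142a-3p reads numbered 1 in wild-type and 9 in knockout libraries. Its only site with 10 or more reads, chr5:121134233-121134271, held 13 reads, all with miR-181, of which 11 came from the wild-type enriched libraries.

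Ptpn2 encodes TC-PTP, which dephosphorylates Jak kinases and Lck, and its span is chr18:67665501-67724632. Its strand, minus, was taken from its 72 reads. It held 15, 10 and 2 wild-type Ago2 IP reads and 5, 5 and 4 knockout ones, or 127, 145 and 45.5 RPM against 82.3, 73.9 and 76.8 RPM, which overlap. miR-181 reads numbered 4, 3 and 1 in the wild type and 0 in each knockout library. let-7 reads numbered 4 in wild-type and 7 in knockout libraries, and miR-142a-3p 5 and 4. It had no site with 10 or more reads and was in no fit with a filter.

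Dusp5 encodes a nuclear phosphatase with a preference for ERK, and its span is chr19:53529145-53541809 (plus strand). It held 49, 28 and 17 wild-type Ago2 IP reads and 16, 7 and 10 knockout ones, or 416, 405 and 387 RPM against 263, 103 and 192 RPM, without overlap. Dusp5 fell by 1.17 (log2) in the knockout, with an SE of 0.28, a 95% interval of -1.74 to -0.61 and an edgeR adjusted p of 0.00274. Dusp5 passed the filter on low counts only through the wild-type libraries, where it was high, so its being tested depended on that fall. Without the filter on low counts the value was -1.25 with an edgeR adjusted p of 0.00344. Of the 8 genes, 5 were tested between the genotypes in the Ago2 IP, with 1 lower (Dusp5) and 0 higher, against 6.75% of all 1615 tested genes called lower and 3.41% called higher. The median log2 difference was -0.05 over the 5 tested members and 0.02 over all tested genes. DESeq2 called 0 of the 8 and gave Dusp5 a log2 difference of -1.16 with an adjusted p of 0.169, and without knockout Ago2 IP replicate 2 the edgeR value was -0.85 with an adjusted p of 0.0774.

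The Dusp5 reads were also split by miRNA. miR-181 reads numbered 27, 14 and 6 in wild-type and 1, 0 and 2 in knockout libraries. Reads of other miRNAs, per 1000000 of such reads, were 267, 293 and 369 in wild-type and 250, 105 and 156 in knockout libraries, also without overlap. Their log2 difference was -0.81 ± 0.35 (SE, edgeR adjusted p = 0.248) and was not called. With miR-181 reads left out, 5 members were tested and 0 were called, against 1.5% of 1396 tested genes called lower and 0.788% called higher, and 2 members, Ptprc and Dusp5, had an unadjusted p under 0.05 (0.0152 and 0.0198), as did 11.8% of the 1396 genes. DESeq2 was not run on these reads.

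Within Dusp5 the miR-181 reads and the let-7 reads lay apart. The site chr19:53537449-53537592 (plus strand), 4295 nt from the 3′ end, held 473 of the gene's 590 reads, 451 of them with miR-181. In the Ago2 IP it held 30, 16 and 9 reads in wild-type and 7, 1 and 3 in knockout libraries. The site fell by 2.07 (log2, SE 0.45), with an edgeR adjusted p of 3.67e-05 and values of -2.88 to -1.55 over 12 alternative fits. It was deep enough for the main fit only through the wild-type libraries, where it was high. Another 11 of its Ago2 IP reads were miR-142a-3p. The site chr19:53541081-53541222, 614 nt from the 3′ end, held 9, 8 and 5 reads in wild-type and 6, 5 and 5 in knockout libraries, led by let-7f-5p (7), let-7d-5p (7), let-7i-5p (6) and miR-142a-3p (6), with 2 miR-181 reads in the Ago2 IP. let-7 reads of the whole gene numbered 5, 6 and 4 in wild-type and 6, 4 and 5 in knockout libraries, and made up 15.96% and 45.5% of the gene's pooled reads, a difference that was not tested. A further site, chr19:53537618-53537663, held 16 reads, 14 of them with miR-181.

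Of the members' 974 sites, 3 had enough reads for the fit between genotypes in the Ago2 IP: the main sites of Ptprc, Dusp5 and Dusp2. Of these 2 were lower in the knockout, those of Ptprc and Dusp5, and 0 were higher, against 25.5% of 251 tested sites called lower and 10.8% called higher. Both were deep enough only through the wild type, and 571 of 584 and 451 of 473 of their reads were miR-181 reads. As miR-181 went from 30.8% to 1.38% of all pooled Ago2 IP reads, the 2 calls are no separate evidence about these sites. With library sizes alone the calls over all sites went from 27 higher and 64 lower to 43 and 62, and the median from 0.15 to 0.30.

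Dusp2 encodes PAC-1, an inducible nuclear MAP kinase phosphatase of lymphocytes, and its short span is chr2:127336159-127338377 (plus strand). It held 22, 19 and 12 wild-type Ago2 IP reads and 27, 22 and 14 knockout ones, or 187, 275 and 273 RPM against 444, 325 and 269 RPM, which overlap. The log2 difference was 0.57 ± 0.27 (SE, 95% interval 0.03 to 1.111, edgeR adjusted p = 0.197). Few of its reads carried miR-181: 1 of 53 reads in the wild type and 0 of 63 in the knockout were miR-181 reads. miR-29 reads numbered 7, 9 and 2 in wild-type and 8, 10 and 3 in knockout libraries, 34.0% and 33.3% of the gene's pooled reads, where miR-29 made up 0.706% and 1.08% of all Ago2 IP reads. miRNAs of the miR-17/20/93 family took 17 reads in wild-type and 8 in knockout libraries, and miR-142a-3p took 6 and 8.

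The Ago2 IP reads of Dusp2 lay at a median of 250 nt from its 3′ end, in a span of 2219 nt. The main site, chr2:127338056-127338262, held 14, 12 and 8 wild-type Ago2 IP reads and 20, 14 and 7 knockout ones, with miR-142a-3p (10 reads) as the most frequent single miRNA. Next were miR-93-5p and miR-20a-5p, which share a seed, and miR-669o-3p, with 6 reads each. The site had a log2 difference of 0.46 ± 0.37 (SE, edgeR adjusted p = 0.356). A separate site 500 nt from the 3′ end, chr2:127337871-127337930, held 6, 6 and 2 reads in wild-type and 4, 7 and 4 in knockout libraries. It held 20 of the gene's 27 miR-29b-3p and 7 of its 12 miR-29a-3p Ago2 IP reads, and had no miR-181 read in any of the 12 libraries.

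Dusp6 encodes a cytoplasmic ERK phosphatase induced by ERK itself, and its span is chr10:99263231-99267489 (plus strand). It was the shallowest member, with 4, 5 and 4 wild-type Ago2 IP reads and 0, 3 and 1 knockout ones, or 33.9, 72.4 and 90.9 RPM against 0, 44.4 and 19.2 RPM. The groups overlapped, and a difference was not detectable at this depth. miR-181 gave 2 of the 13 wild-type reads and 0 of the 4 knockout reads. Its main site, chr10:99264771-99264851, held 16 reads, all with miR-181 and 14 of them from the wild-type enriched libraries.

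**Figure D2:**
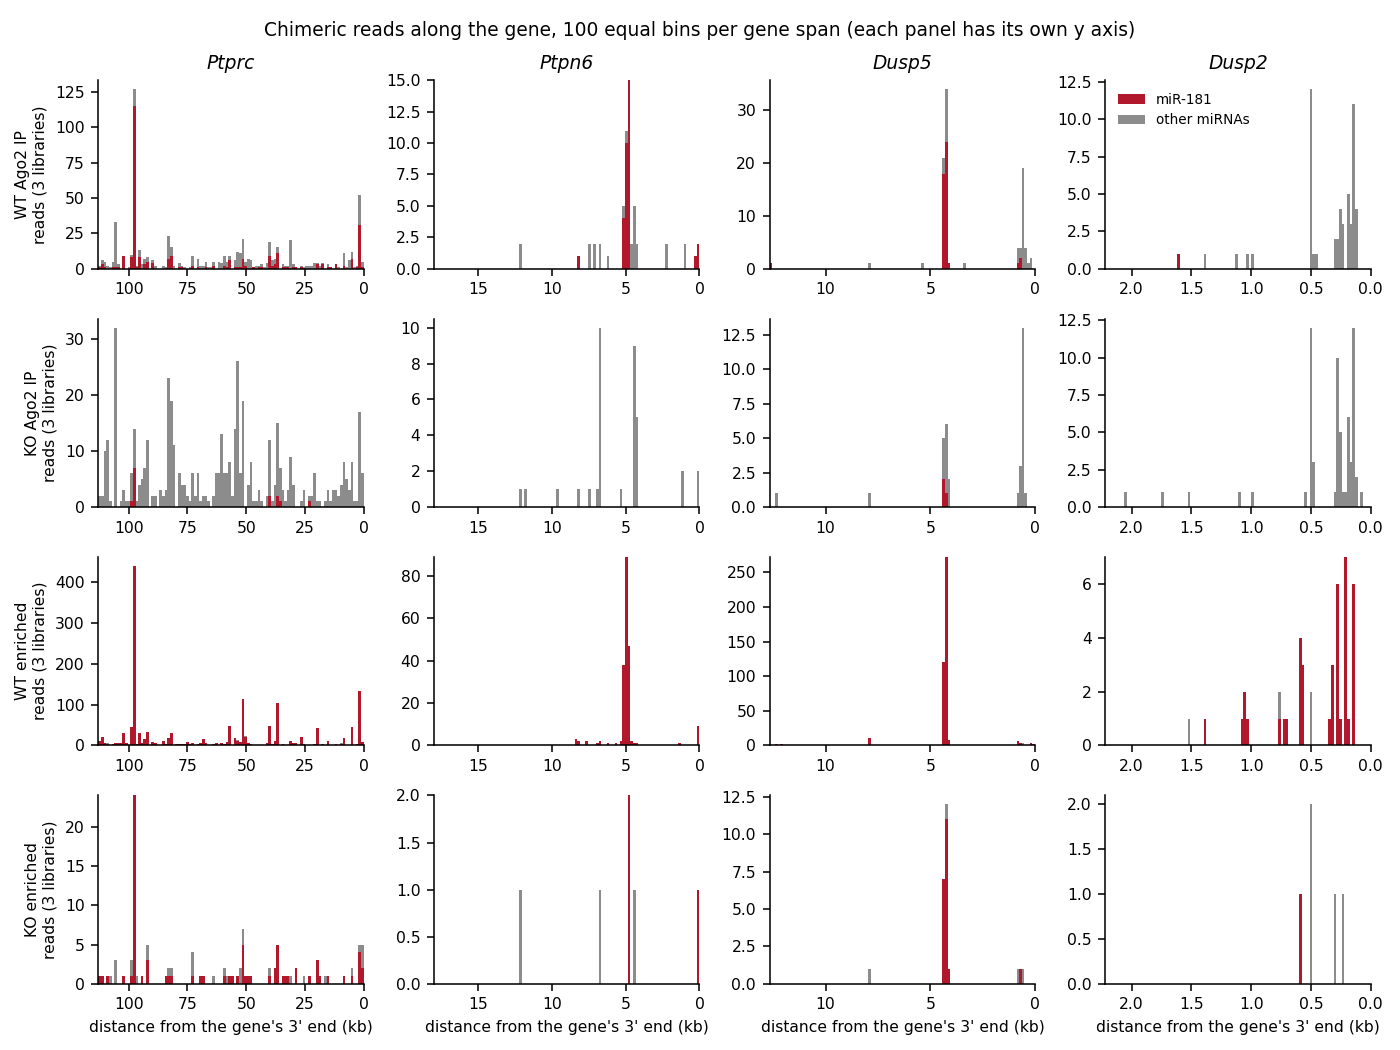
Chimeric reads of 3 pooled libraries along Ptprc, Ptpn6, Dusp5 and Dusp2 (x axis, distance from the gene's 3′ end in kb, 100 equal bins; y axis, reads, scaled per panel), split into miR-181 (red) and other miRNAs (grey), with 1 row per group. The tallest red bars of Ptprc, Ptpn6 and Dusp5 lie at the sites with 571, 204 and 451 miR-181 reads, and the Dusp2 reads of the Ago2 IP are almost all grey.

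The share of miR-181 among a gene's Ago2 IP reads can be set beside that of other genes. Over the 3336 genes with at least 15 reads in the pooled wild-type libraries, the median share was 28% (quartiles 19.4% and 38.6%). The pooled shares were 57.9% in Ptpn6 (95% Wilson interval 45.0% to 69.8%), 50% in Dusp5 (40.1% to 59.9%) and 45.8% in Ptprc (42.0% to 49.7%), with 93.5%, 89.0% and 85.7% of these genes below them. Ptpn11 had 8 of 16 reads (28.0% to 72.0%), Ptpn2 29.6% of 27 reads (15.9% to 48.5%) and Ptpn22 26.6% of 64 reads (17.3% to 38.5%). Dusp2 had 1.89% (0.334% to 9.94%), with 1.56% of the genes below it. Intervals and floors cover counting error only.

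Between the genotypes, the share was compared over libraries in the 5 genes with at least 5 reads in every Ago2 IP library. Ptprc had 45.5% ± 2.46 in wild-type and 2.98% ± 1.25 in knockout libraries as means over libraries (SD, n = 3 each), and Dusp5 had 46.8% ± 10.3 and 8.75% ± 10.2, in both genes without overlap. Ptpn6 had 55.3% ± 11.5 and 0%, and Ptpn22 28.2% ± 19.3 and 0%, with 0 in all 3 knockout libraries. Without wild-type replicate 2 the Ptpn22 difference moved from -28.2 to -17.3 percentage points. For each of these 4 genes the exact two-sided permutation test gave p = 0.1, the smallest that 3 against 3 libraries allow, and 0.125 after Benjamini-Hochberg adjustment over 5 tests. Dusp2 had 2.78% ± 4.81 and 0%, with an exact p of 1. Over all pooled reads of the same libraries miR-181 took 30.8% and 1.38%, so a fall in a gene's share is not particular to these members. How many other genes had shares without overlap was not counted.

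**Figure D3:**
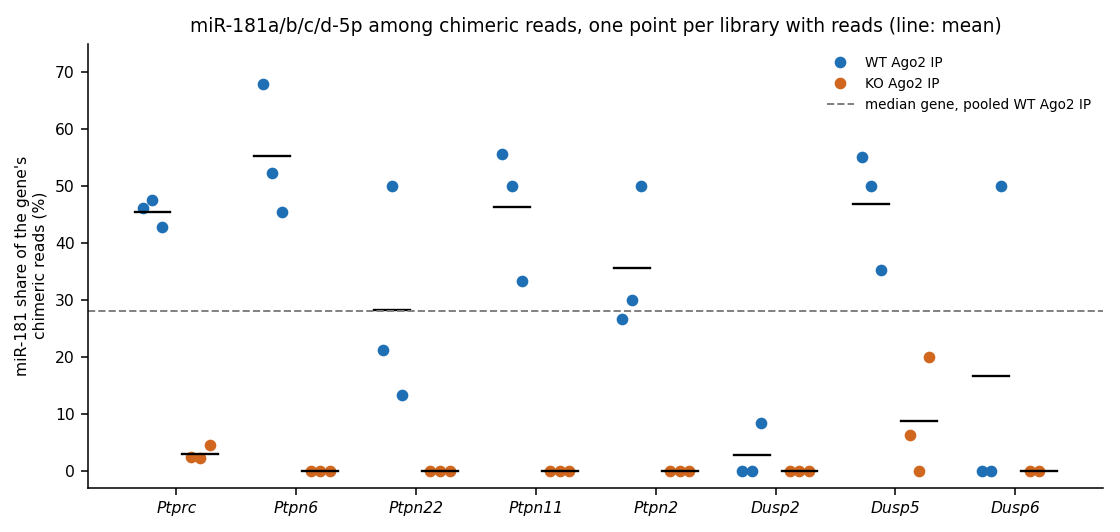
Share of a gene's Ago2 IP chimeric reads named miR-181a, b, c or d (y axis, percent), 1 point per library with reads in the gene and a line at the mean, wild type in blue and knockout in orange, for the 8 genes (x axis). The dashed line marks the median gene at 28%, and every wild-type point of Ptprc, Ptpn6, Ptpn11 and Dusp5 lies above it while all Dusp2 points lie at or below 8.33%.

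**Figure D4:**
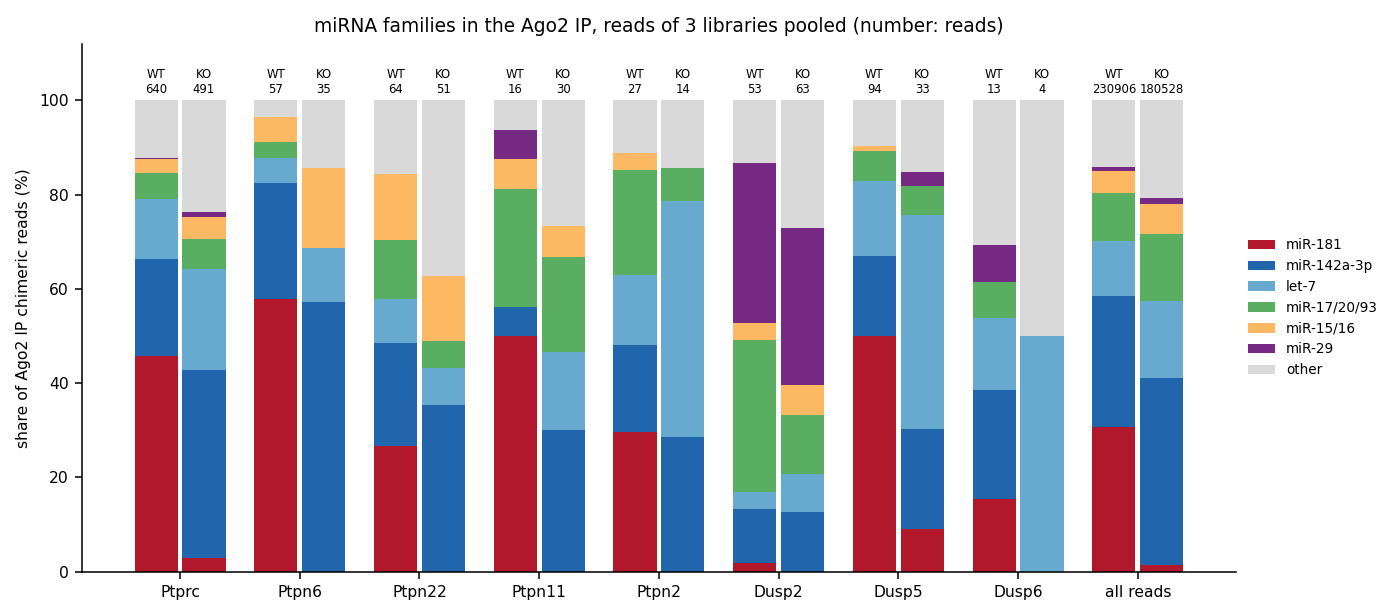
Share of Ago2 IP chimeric reads by miRNA family, defined by a shared seed (y axis, percent of the pooled reads of 3 libraries), in the wild type and knockout for each gene and for all reads (x axis; the number above a bar is its reads). miR-29 takes 34.0% of the wild-type and 33.3% of the knockout reads of Dusp2, against 0.706% and 1.08% of all reads.

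The enrichment for miR-181 was compared with the plain Ago2 IP in the wild type, in shares of each library scaled by TMM. Of the 8 genes, 6 were tested, 1 was higher and 2 were lower, against 19.3% of 3144 tested genes called higher and 16.8% called lower. With library sizes alone in place of TMM, the median of all tested genes moved from -0.04 to -0.39 and the calls from 606 higher and 528 lower to 389 higher and 1063 lower, but the 3 members kept their direction and their call. In this comparison the median was 0.18 over the 6 tested members.

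Dusp5 held 172, 147 and 120 reads in the wild-type enriched libraries, or 587, 580 and 617 RPM, above all Ago2 IP libraries. It rose by 0.90 (log2, SE 0.17), with an edgeR adjusted p of 6.28e-05. With repeated reads counted once the value was 0.39 with an adjusted p of 0.0972, and 187 of the gene's 590 reads were such repeats, 185 of them in its miR-181 site. In the pooled wild-type Ago2 IP 50% of the Dusp5 reads were miR-181 reads, against 30.8% of all reads. A rise under a selection for miR-181 is therefore no separate evidence about Dusp5. Ptpn6 held 77, 72 and 53 reads, all with miR-181, and had a log2 difference of 0.49 ± 0.23 (SE, edgeR adjusted p = 0.085), which was called only with repeats counted once (0.55, adjusted p = 0.0456).

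The lower genes were Dusp2 and Ptpn22. Dusp2 held 12, 26 and 6 reads, or 40.9, 103 and 30.8 RPM, all below the Ago2 IP libraries, and fell by 1.597 (log2, SE 0.34, edgeR adjusted p = 0.000264). Only 1 of its 53 wild-type Ago2 IP reads was a miR-181 read, so a fall under this selection was set in advance. Ptpn22 held 32, 34 and 19 reads, or 109, 134 and 97.6 RPM, and fell by 0.92 (SE 0.26, edgeR adjusted p = 0.00471). The Ptpn22 call was lost with DESeq2 (-0.82, adjusted p = 0.113) and without the filter on low counts (-0.72, adjusted p = 0.0939). Ptprc, with 651, 495 and 454 reads, had a log2 difference of 0.01 ± 0.14 (SE, edgeR adjusted p = 0.953), which became -0.35 with an adjusted p of 0.0376 with library sizes alone. Ptpn11 held 18, 22 and 11 reads and had a log2 difference of 0.35 ± 0.40 (SE, edgeR adjusted p = 0.538), and Ptpn2, with 11, 8 and 10 reads, and Dusp6, with 12, 8 and 5, were not tested.

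At the level of sites, 9 of the members' sites were tested in this comparison, with 5 lower and 0 higher after the enrichment, against 26.3% of 1200 tested sites called lower and 30.0% called higher. Library sizes alone moved the median of all tested sites from 0.35 to 1.112 and the calls from 360 higher and 316 lower to 655 higher and 256 lower. The let-7 and miR-142a-3p site of Ptprc near its 5′ end had a log2 difference of -5.82 (SE 0.57, edgeR adjusted p = 4.88e-10), the let-7 site of Dusp5 one of -3.99 (SE 0.49, adjusted p = 3.67e-08) and the main site of Dusp2 one of -2.94 (SE 0.44, adjusted p = 1.27e-06). These 3 fell and kept their call in 12 alternative fits. In the wild-type Ago2 IP only 0 of 27, 2 of 22 and 0 of 34 of their reads were miR-181 reads. Their fall under this selection was therefore set in advance, and they were deep enough for the fit only through the Ago2 IP, where they were high. The main miR-181 site of Ptprc had a log2 difference of -0.64 with TMM (SE 0.23, edgeR adjusted p = 0.0173) but 0.12 with library sizes alone (adjusted p = 0.599) and 0.13 with sites of at least 10 reads (0.763). Its call was also lost with DESeq2 (-0.01, 0.975) and 50-nt joining (-0.45, 0.0827), and without wild-type Ago2 IP replicate 1 (-0.55, adjusted p = 0.116), enriched replicate 2 (-0.31, 0.335) or enriched replicate 3 (-0.47, 0.106). The second Ptprc site had -1.09 with TMM (SE 0.34, edgeR adjusted p = 0.00829) and -0.32 with library sizes alone (adjusted p = 0.391). Its call was also lost with sites of at least 10 reads (-0.31, 0.535) and DESeq2 (-0.47, 0.393), and without wild-type Ago2 IP replicate 1 (-1.00262, adjusted p = 0.0553) or enriched replicate 2 (-0.76, 0.0952). The remaining Ptprc sites tested had 0.06 ± 0.41 and 0.61 ± 0.50 (SE, edgeR adjusted p = 0.91 and 0.31), and the latter was called higher with library sizes alone (1.37, adjusted p = 0.0116). The miR-181 sites of Dusp5 and Ptpn6 had 0.38 ± 0.26 and 0.03 ± 0.32 (SE, edgeR adjusted p = 0.203 and 0.949) with TMM and were called higher with library sizes alone, at 1.15 and 0.80 (adjusted p = 0.000141 and 0.0184).

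In the knockout, enriched libraries were small, and 2 members were tested against the knockout Ago2 IP, with 1 higher and 0 lower, against 15.6% of 828 tested genes called higher and 5.8% called lower. With library sizes alone these calls went from 129 higher and 48 lower to 122 and 103, and the median of all tested genes from -0.07 to -0.25. Dusp5 held 7, 15 and 2 reads, or 574, 779 and 293 RPM, above every knockout Ago2 IP library, and rose by 1.93 (SE 0.42, edgeR adjusted p = 8.09e-05). Dusp5 passed the filter on low counts only through the enriched libraries, where it was high, so its being tested depended on that rise. Without knockout enriched replicate 2 the value was 1.41 with an adjusted p of 0.169, and without the filter on low counts it was 1.31 with an adjusted p of 0.0986. Of these 24 Dusp5 reads, 20 were miR-181 reads, 12 of them miR-181a, 4 miR-181b, 3 miR-181c and 1 miR-181d. Ptprc held 29, 62 and 17 reads, 78 of 108 with miR-181, and had a log2 difference of 0.22 ± 0.18 (SE, edgeR adjusted p = 0.454), which turned to -0.41 without the filter. These 4 comparisons share libraries, and whether the enrichment differed between the genotypes was not tested.

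Between the genotypes after the enrichment, 5 members were tested and 0 called, against 3.4% of 2146 tested genes called lower and 2.1% called higher. With library sizes alone the calls went from 45 higher and 73 lower to 75 and 34, and the median of all tested genes from -0.13 to 0.16. None of the 5 had an edgeR unadjusted p under 0.05, as 16.8% of the tested genes did, and DESeq2 called 0. Ptpn6 held 4, 2 and 0 reads in the knockout against 77, 72 and 53 in the wild type, with a log2 difference of -1.08 ± 0.55 (SE, 95% interval -2.20 to 0.04, adjusted p = 0.316). Without knockout enriched replicate 1 it was -2.32 (adjusted p = 0.114). Dusp5 had -0.22 ± 0.31 (SE, 95% interval -0.84 to 0.40, edgeR adjusted p = 0.803), which turned to 0.39 with repeats counted once and 0.06 with library sizes alone and was -1.03 without knockout enriched replicate 2. Ptprc had 0.06 ± 0.20 (SE, interval -0.34 to 0.46, edgeR adjusted p = 0.923), which turned to -0.56 without the filter and -0.55 without knockout enriched replicate 2. Dusp2 had 0.85 ± 0.78, or -0.13 without knockout enriched replicate 1, and Ptpn22 0.16 ± 0.62, or -0.45 without the filter (SE, edgeR adjusted p = 0.636 and 0.937), so that none of these 4 had a settled direction. Values are shares of each library, and 1 read stood for 51.9 to 146 RPM in the knockout libraries. The other members held at most 3 reads in any knockout enriched library.

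**Figure D5:**
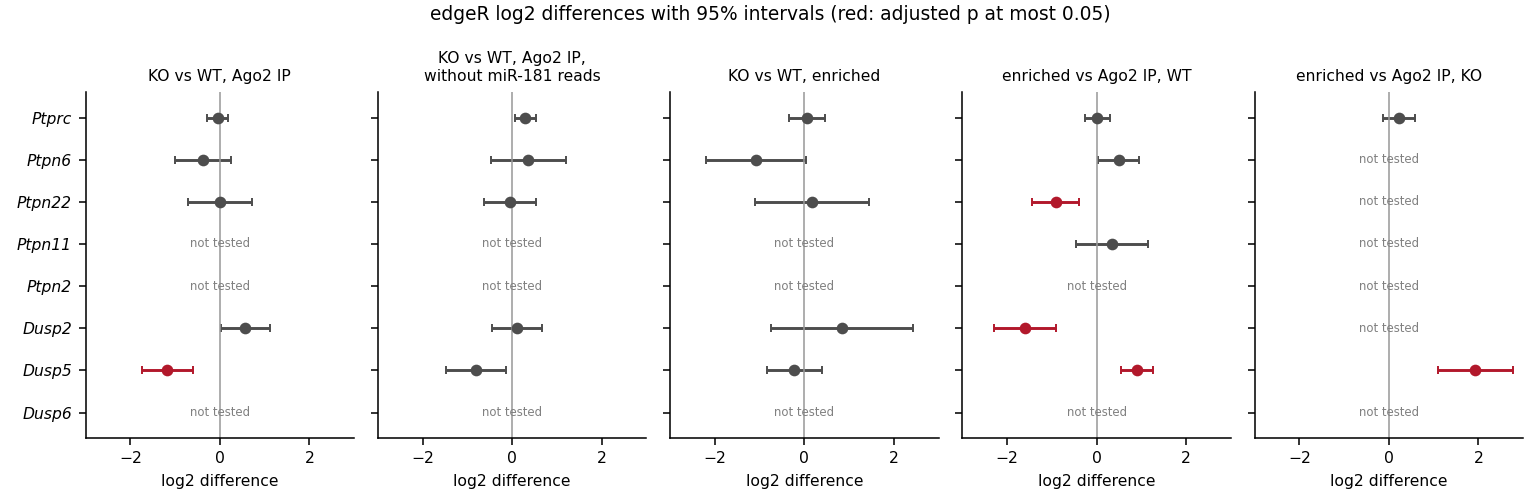
log2 differences of the 8 genes (x axis, points with 95% intervals from edgeR) in 5 fits, with calls at an adjusted p of at most 0.05 in red and genes under the filter on low counts marked as not tested. Dusp5 is called in 3 panels, lower in the knockout Ago2 IP at -1.17 and higher after the enrichment at 0.90 in wild-type and 1.93 in knockout libraries.

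Genes of the same signalling pathway were counted in 3 lists. Between the genotypes in the Ago2 IP the shares of all tested genes are those given above for the members, 3.41% higher and 6.75% lower. Of 43 other phosphatases, 12 were tested, with 1 higher and 0 lower. It was Dusp10, a phosphatase of JNK and p38, with 39 reads in wild-type and 59 in knockout libraries (log2 difference 0.92 ± 0.29 (SE), edgeR adjusted p = 0.0329). DESeq2 did not call it (adjusted p = 0.437), and its call was lost without the filter on low counts (0.277) and without wild-type replicate 2 or 3 or knockout replicate 1 or 3, at adjusted p-values up to 0.165. Of 26 genes of proximal T cell receptor signalling, 18 were tested, with 0 higher and 1 lower, Cd247, which encodes the receptor's zeta chain (-0.46 ± 0.15 (SE), edgeR adjusted p = 0.0424). That call was lost with DESeq2 (adjusted p = 0.391), with library sizes alone (0.0555), without the filter (0.0652) and without wild-type replicate 1 (0.207), knockout replicate 1 (0.152) or knockout replicate 2 (0.182). Of 25 genes of the ERK cascade, 12 were tested and edgeR called 0, with 3 at an unadjusted p under 0.05, against 22.4% of all tested genes, and 0 called by DESeq2.

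Between the genotypes after the enrichment, Cd6 (-2.18, edgeR adjusted p = 0.0152; DESeq2 0.0691) was the only called gene of the 3 lists, of which 13 phosphatases, 17 proximal and 11 ERK genes were tested, against 3.4% of all genes lower and 2.1% higher. It had 288 wild-type and 4 knockout reads, and its value was -3.57 without knockout enriched replicate 2. From the knockout libraries alone Cd6 would have been too shallow for the fit, so its being tested depended on the wild type, where it was high.

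After the enrichment in the wild type, the 43 other phosphatases had 18 genes tested, 1 higher and 1 lower, with a median of -0.23. Proximal signalling genes had 23 tested, 2 higher and 5 lower (median -0.35), and the ERK cascade had 17 tested, 1 higher and 6 lower (median -0.47), where all tested genes had 19.3% higher, 16.8% lower and a median of -0.04. Lat, the adaptor phosphorylated by Zap70, rose by 2.01 (SE 0.35, edgeR adjusted p = 1.12e-05), with 13 reads in the Ago2 IP and 133 in the enriched libraries, which were deeper. Cd3e, a chain of the receptor complex, fell by 1.91 (SE 0.33, edgeR adjusted p = 1.22e-05), and Rasgrp1, the exchange factor that activates Ras in thymocytes, fell by 0.68 (SE 0.14, edgeR adjusted p = 0.00019). From the Ago2 IP alone Lat would have been too shallow for the fit, and from the enriched libraries alone Cd3e would have been. Also called were Cbl (-0.69, edgeR adjusted p = 0.00037) and Cd6 (0.92, 0.000865) of the proximal list. In the ERK list Braf (-1.04, edgeR adjusted p = 0.00549), Rasa1 (-0.60, 0.0137) and Spred2 (-0.81, 0.0221) were called, but none of the 3 by DESeq2 or without wild-type Ago2 IP replicate 1. Among the phosphatases Dusp11 (0.76, edgeR adjusted p = 0.0449) and Ptpn4 (-0.92, 0.0076) were called, neither by DESeq2. Dusp11 also lost its call without any wild-type Ago2 IP replicate or without enriched replicate 1 or 2, and Ptpn4 without Ago2 IP replicate 2 or enriched replicate 3.

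The genes whose reads ran most alike with those of the 2 deepest members were found by Pearson's r of log2(RPM + 10) over the 12 libraries, among 2432 genes with at least 100 reads. For Dusp5 they were Cd8a (r = 0.921), Nr2c2 (0.915) and BC002059 (0.903), and for Ptprc they were Rassf5 (0.904), Qser1 (0.893) and Ubr1 (0.812). These values describe the 4 groups more than single libraries, since the libraries of a group share genotype and enrichment.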

How the data were processed

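The deposited files hold counts: every line stands for 1 chimeric read, with its miRNA, strand and 1-nt location, in 24 files of 12 libraries. Sequencing was paired-end (150 nt), per the labels. Bowtie2 2.4.5, STAR 2.7.10, SAMtools 1.11, bedtools 2.30.0 and UMI-tools 1.1.1, with mm10 and GRCm38.p6, are named in the submitters' processing notes, without their roles. UMI-tools is named there, yet repeats of 1 position and miRNA remain in the files. All reads were used as deposited.

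Reads were counted in RefSeq GRCm38.p6 gene spans on the gene's strand, taken from RefSeq promoters or, for Ptpn2, from its reads. Across 3265 genes checked, the median share of reads on the annotated strand was 100%. Exon, intron and UTR classes and target site sequences were not analysed here. Of 13 miRNAs looked up for the list of sequences, all had a RefSeq sequence. Other miRNAs of the members had no sequence matched by name, such as 18 in Ptprc (47 Ago2 IP reads) and 5 in Dusp2 (12). Counts were tested with edgeR 4.0.16 (quasi-likelihood test with TMM scaling and filterByExpr at a minimum count of 10, adjusted p at most 0.05 over all genes or sites) in R 4.3.3, each fit on its own 2 groups. DESeq2 1.42.0 was an alternative. Shares were compared by exact permutation tests in Python 3.11.15 with scipy 1.17.1. The edgeR step was tested on simulated data.

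The members, lists, tests and alternatives were chosen with earlier results of these data known. Named were all 8 members, the 3 sites of most reads per member with at least 10 reads and any called site, the 3 most frequent Ago2 IP miRNAs per member with the miR-181 family, up to 4 called genes per list (1 of these is not reported here), and 3 genes of like pattern for each of 2 members.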

Additional observations from a re-analysis of the deposited data

How the results depend on the processing

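Of 749 values under alternatives, 656 stayed on their side of the threshold or within their spread, 62 lost a call, 9 gained one and 20 moved by over 1.5 times or 1 SD; the cause was not tested. Differences that were not called changed sign in 44 values of 14 results, mostly of Ptprc and Ptpn22. The called difference that changed sign, in 2 values, was that of the main Ptprc site after the enrichment in the wild type, at 0.12 with library sizes alone and 0.13 with sites of at least 10 reads.

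With DESeq2, counts of called genes were 51 (164 with edgeR) between genotypes in the Ago2 IP and 631 (1134) after the enrichment in the wild type, and of called sites 280 (91) and 1526 (676). Without the filter, 283 genes (118) were called between genotypes after the enrichment. With sites of at least 10 reads, 518 (91) and 2464 (676) were called, and with repeats counted once 435 (676). Leaving out 1 library gave 71 (without wild-type enriched replicate 2) to 122 called genes in place of those 118. With miR-181 reads left out it gave 16 to 27 in place of 32, the lowest being 18 and 16 without knockout Ago2 IP replicates 1 and 2. The Dusp2 share difference was between -4.17 and 0 percentage points. With repeats counted once, RPM in the wild-type enriched libraries moved to 2462 in Ptprc, 159 in Ptpn22, 96.0 in Ptpn11, 55.8 in Ptpn2, 370 in Ptpn6, 509 in Dusp5 and 42.2 in Dusp6, and in the knockout ones to 167 in Ptpn22.

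With the replicate number as a block, 129 genes (164) were called between genotypes in the Ago2 IP, and no member's call changed, while the call of Cd247 (adjusted p = 0.0701) was lost. Same-numbered libraries correlated at -0.165 to 0.24 in their deviations from group means, not above 0.1 in every pair, so the numbers were not used as pairs. Summing knockout enriched libraries 2 and 3, an alternative added after seeing the data, gave 132 (118) and 214 (177) called genes. Depth limited Ptpn2, Ptpn11 and Dusp6 in the Ago2 IP and all members but Ptprc and Dusp5 in the knockout enriched libraries.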

Other observations

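The miRNA at the main Ptprc site was miR-181b more often than over the rest of each wild-type library, a pattern chosen after its values were seen and not tested. Of the site's 584 reads, 252 were repeats of another read. Among the miR-181a and miR-181b reads of this site, miR-181b took 33 of 55, 17 of 32 and 9 of 22 in the wild-type Ago2 IP libraries, or 60%, 53.1% and 40.9%. Over the rest of each library its share was 23.1%, 22.3% and 22.8%. In the wild-type enriched libraries the site had 40.5%, 31.8% and 33.3%, against 17.3%, 18.2% and 20.3% over the rest, so that the site lay higher in 6 of 6 libraries. The miR-181 site of Dusp5 had 21.4% in the pooled wild-type Ago2 IP (95% Wilson interval 11.7% to 35.9%) and 23.6% after the enrichment (19.7% to 28.1%). That of Ptpn6 had 48.3% (31.4% to 65.6%) and 28.2% (22.0% to 35.4%), against 22.9% and 18.4% over the rest. It too lay higher in 6 of 6 libraries, so the pattern was not particular to the Ptprc site.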
